A study of Mus musculus with 24 samples.

Results

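The IgLON family (*Opcml*, *Ntm*, *Lsamp*, *Negr1* and *Iglon5*) and the L1 family (*L1cam*, *Chl1*, *Nrcam* and *Nfasc*) of neuronal adhesion genes were followed in developing cortex and in neurospheres of *Cep135*-mutant and control mouse embryos. The 9 genes are the rows of a table of 54658 genes whose symbols belong to these families, 5 of the first and 4 of the second, and all were above 0 in all 24 libraries. The families were chosen on the genotype differences of these libraries, which were known, and *Opcml*, *Chl1* and *Nfasc* are named in lists that the study drew from its genotype comparisons, so the genotype values below are a description. IgLON proteins carry immunoglobulin domains, are held in the neuronal membrane by a lipid (GPI) anchor, and bind each other in same and mixed pairs between neighbouring cells. L1 family proteins cross the membrane, carry immunoglobulin and fibronectin domains outside the cell and bind ankyrin inside it, which ties them to the spectrin skeleton. Both families are known for the growth and bundling of axons, the contacts between neurons and, for the L1 family, the migration of cortical neurons.

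RNA was taken from the dorsal telencephalon, the part of the embryonic forebrain that forms the cortex, of 12 embryos from matings of *Cep135* heterozygous mice. Mutants were homozygous for a null allele of *Cep135* (Δ8, a deletion of 8 bp in its exon 2), a gene for a centriole protein, and controls carried +/+. Mutants A, B and C and controls D, E and F were taken at E11.5 (E, embryonic day), and mutants 1, 2 and 6 and controls 3, 4 and 5 at E14.5. Litters were read from the codes in the sample titles, which do not name litters, with 2 codes at E11.5 and 1 at E14.5. The labels of mutants B and C spell their code in 2 ways, which were taken as the same litter. Cortical neural progenitors of the same 6 E14.5 embryos, with no drug treatment, were cultured for 12 and 24 hours as incipient neurospheres, which gives 8 groups of 3 libraries. The deposited labels give mutant 6's cortex both ages, and it was taken as E14.5 from its title. In each culture the embryo is the replicate, so the 18 libraries of embryos 1 to 6 hold 6 independent animals.

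The values are normalized read counts, the reads on a gene divided by a size factor of the library. Reads came from the 3′ ends of transcripts, so levels of different genes are not ranked against each other here. The libraries held 4732781 to 11645213 reads on genes, and at 24 hours the depth of mutants (7903426 to 11645213) and controls (4732781 to 5709443) did not overlap. The transcript of *Cep135* lay between 171 and 375 in controls and between 173 and 336 in mutants over the 4 settings, and 3′ reads do not show the deletion. *Xist* and Y-linked transcripts marked mutants 1 and 2 as female and the other 4 embryos of the E14.5 litter as male. At E11.5 they marked controls D and F and mutant B as male and control E and mutants A and C as female. Neurons were present in each group by their markers: the summed normalized count of 12 neuron markers, *Tubb3* and *Stmn2* among them, was 11989 to 17595 at E11.5 and 35119 to 47086 in E14.5 cortices and cultures. In E14.5 cortices and in cultures this sum did not overlap between genotypes, at 35119 to 39125 in mutants and 42579 to 46275 in controls at E14.5, 35226 to 40128 and 41273 to 46623 at 12 hours, and 36112 to 41702 and 45033 to 47086 at 24 hours. In RNA from whole tissue, fewer neurons and less RNA per neuron cannot be told apart.

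In the GRCm38 genome the IgLON genes *Opcml* (chromosome 9, 27790775 to 28925410, plus strand) and *Ntm* (chromosome 9, 28994750 to 29963141, minus strand) are neighbours whose 3′ ends face each other across 69.3 kb. *Lsamp* spans 2197.3 kb of chromosome 16, 39984361 to 42181679 on the plus strand, and *Negr1* 754.7 kb of chromosome 3, 156561794 to 157316445 on the plus strand. *Iglon5* is the short member, with 17.2 kb on chromosome 7, 43472904 to 43490075 on the minus strand. Of the L1 family, *L1cam* lies on chromosome X (73853778 to 73896105, minus strand), *Chl1* on chromosome 6 (103510586 to 103750211, plus strand), *Nrcam* on chromosome 12 (44328885 to 44601964, plus strand) and *Nfasc* on chromosome 1 (132564690 to 132741797, minus strand). None lies on chromosome 5, which carries *Cep135*. No other gene of the same strand overlaps the last 2000 bp of any member as annotated, and reads were counted by strand. Where the reads lay within each gene was not examined.

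Because the members moved together with age, their promoter windows (RefSeq starts on GRCm38.p6, 250 bases before the start to 50 after it, 13 windows for the 9 genes) were searched on both strands for a pair of E-boxes, 6-base words that neurogenic bHLH factors can bind. CAGATG, searched with its reverse complement, was in windows of *Lsamp* and *L1cam*, and in 17.2% of all 32851 windows of this length. CAGCTG, which reads the same on both strands, was in windows of *Iglon5* and *Nfasc*, and in 16.3% of all windows. The windows of *Opcml*, *Ntm*, *Negr1*, *Chl1* and *Nrcam* held neither word. A match describes letters only and is not a binding site. The 30 bases around the first match in each of the 4 genes are shown 5′ to 3′ on the gene's strand, with the word in capitals.
*Lsamp*, chr16:41532680-41532709, plus strand: tcagccaggcctCAGATGgagctgttgtcc
*L1cam*, chrX:73880907-73880936, minus strand: tgcggccaggttCAGATGaaacaaggaacg
*Iglon5*, chr7:43490377-43490406, minus strand: ttcagcagaaggCAGCTGgatgaagtgcat
*Nfasc*, chr1:132642844-132642873, minus strand: tttttctttctcCAGCTGagcactgtctgg

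All 9 genes were higher in E14.5 than in E11.5 cortex, by folds of 1.62 (*Iglon5*) to 9.54 (*Chl1*), and for each the lowest of the 6 E14.5 cortices lay above the highest of the 6 E11.5 cortices. The comparison asks how far the families rise as cortical neurons are born. The test was limma on the log2 of the normalized count plus 1, over genes with a mean of at least 10, with genotype as a term and Benjamini-Hochberg adjustment, and a gene is called at an adjusted p under 0.05. Of the 13650 genes tested, 23.8% were called higher and 29.3% lower, and 15.5% had all E14.5 values above all E11.5 values. The median log2 fold change was 2.18 over the members and -0.08 over all genes tested. For each member the exact permutation test within genotype, two-sided, gave p = 0.005, the smallest it can give with 12 cortices.

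**Figure D1:**
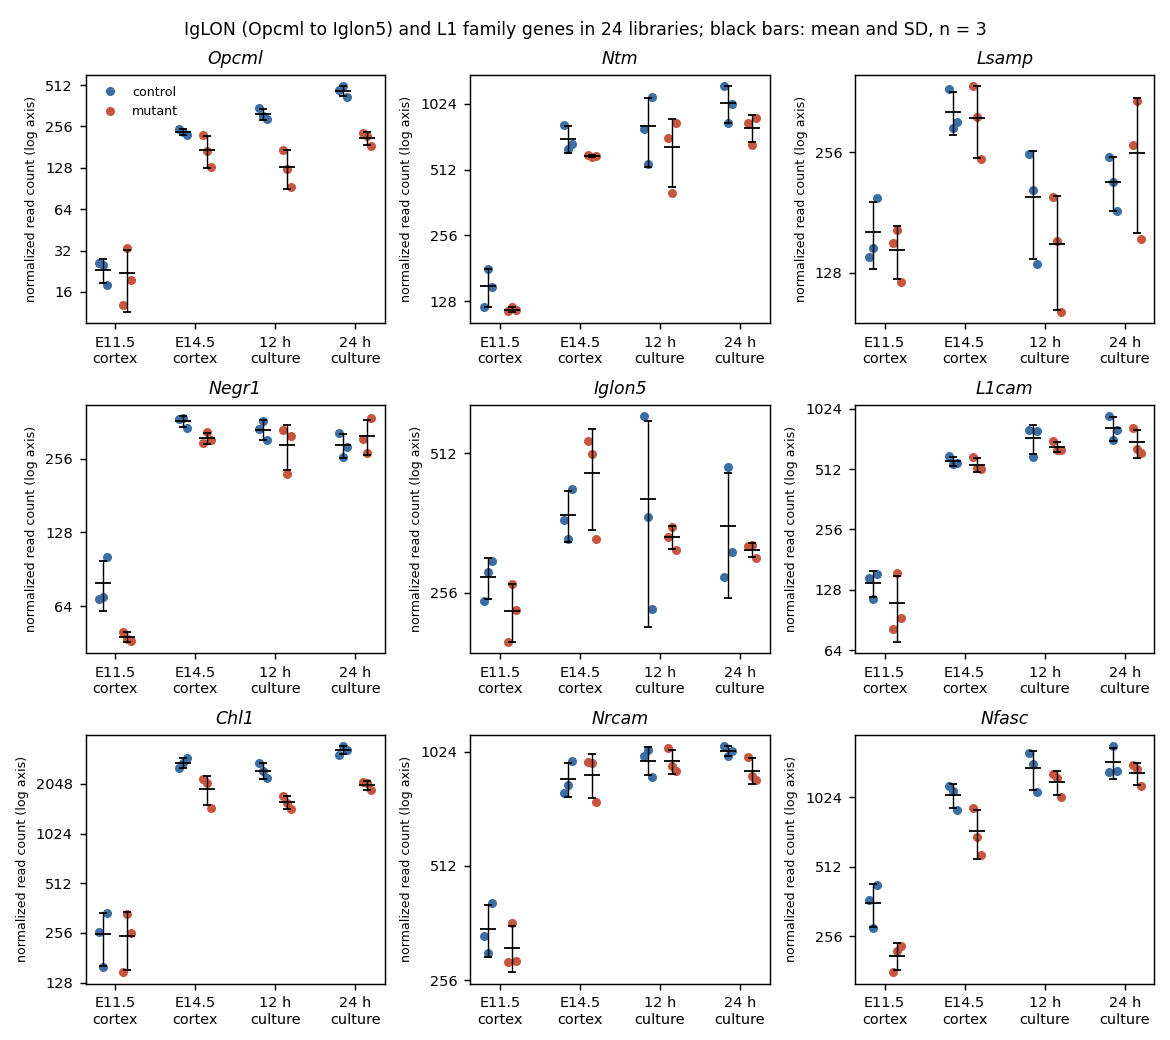
Normalized read count (log axis, with its own scale in each panel) of the 9 genes by setting, with 3 control and 3 mutant libraries in each, points for libraries and black bars for the mean and SD. In all 9 panels the E11.5 points lie below the E14.5 points, and in the *Opcml* and *Chl1* panels the mutant points lie below the control points in E14.5 cortices and both cultures.

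Among the IgLON genes the rise was steepest for *Opcml*, which codes for the opioid-binding cell adhesion molecule OBCAM. Its normalized count was 26.2, 25.1 and 17.9 in E11.5 controls D, E and F and 12.9, 33.5 and 19.5 in mutants A, B and C. At E14.5 it was 246, 234 and 222 in controls 3, 4 and 5 and 220.2, 170.0 and 129 in mutants 1, 2 and 6. *Opcml* was scarce at E11.5, where its lowest library held 20 reads, and rose by 3.15 on the log2 scale (standard error 0.20, limma adjusted p = 3.89e-09). *Ntm*, which codes for neurotrimin, rose by 2.29 (standard error 0.10), with 115 to 179.8 at E11.5 and 583 to 822 at E14.5. *Negr1*, a regulator of neuronal growth, rose by 2.44 (standard error 0.12), with 46.2 to 101 at E11.5 and 296 to 376 at E14.5. The smaller rises were those of *Lsamp*, the gene for the limbic system-associated membrane protein, with 1.04 (standard error 0.13), and of *Iglon5*, with 0.70 (standard error 0.14). *Lsamp* held 121 to 197 at E11.5 and 247 to 375 at E14.5, and *Iglon5* 201 to 300.0 and 334 to 544.

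In the L1 family *Chl1*, the close homolog of L1, rose from 258, 159 and 336 in E11.5 controls D, E and F and 148, 336 and 255 in mutants A, B and C. At E14.5 it stood at 2548, 2726 and 2947 in controls 3, 4 and 5 and at 2179, 2058 and 1469.7 in mutants 1, 2 and 6. Its log2 fold change was 3.25 (standard error 0.20, limma adjusted p = 2.37e-09), and the mutant and control libraries overlapped at E11.5 but not at E14.5. *L1cam*, the founding member of the family, rose by 2.18 (standard error 0.14), with 81.3 to 155 at E11.5 and 512 to 595 at E14.5. *Nfasc*, which codes for neurofascin of the axon initial segment, rose by 1.67 (standard error 0.13), with 178 to 427 at E11.5 and 575 to 1141 at E14.5. *Nrcam*, a partner of ankyrin and of contactins, rose by 1.41 (standard error 0.11), with 286 to 409.6 at E11.5 and 752 to 968 at E14.5.

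The neuron markers rose over the same days, 11 of 12 of them past the threshold, and 8 of 10 apical progenitor markers fell. Counted per 1000 of the summed neuron markers, the members parted. *Chl1* was 12.3 to 24.4 at E11.5 and 41.8 to 69.2 at E14.5, and *Opcml* was 1.02 to 2.43 and 3.68 to 5.63, so both exceeded the rise of the markers. *Negr1* (3.40 to 5.74 and 7.56 to 8.72) and *L1cam* (6.78 to 11.3 and 11.7 to 15.0) also did not overlap between the ages, while *Ntm* did (7.77 to 14.7 and 13.7 to 18.4). *Nrcam* and *Nfasc* kept the pace of the markers, with overlapping ranges of 21.5 to 26.2 and 17.8 to 25.1 for *Nrcam* and 14.8 to 24.3 and 16.4 to 25.5 for *Nfasc*. *Iglon5* ran the other way on this scale, with 15.8 to 23.1 at E11.5 and 7.22 to 13.9 at E14.5, and *Lsamp* was 9.0 to 12.7 at E11.5 and 6.35 to 9.58 at E14.5, ranges that overlap. These ratios are a description, and the part of neuron number in the rise was not tested. The E11.5 and E14.5 embryos carry different litter codes, so age and litter cannot be told apart.

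The partners of the L1 family and the other adhesion genes gave a frame for these rises. Of 20 partner genes (ankyrins, spectrins, sheddases, ligands), 19 were tested and 13 were higher and 4 lower at E14.5, with a median log2 fold change of 0.60. *Dcx*, a microtubule protein of migrating neurons that binds neurofascin, rose by 1.89 (standard error 0.08), *Ank3*, the gene for ankyrin G, by 1.38 (standard error 0.07), and the spectrin gene *Sptan1* by 0.91 (standard error 0.07). *Ncan*, the fourth by p among the called partners, rose by 1.47 on the log2 scale (standard error 0.11). Of 24 genes of other adhesion families (contactins and contactin-associated proteins, the CADM, nectin, NCAM and DSCAM genes and others), 21 were tested and 15 were higher and 3 lower, with a median of 1.76. *Cadm2* rose by 3.16 (standard error 0.13) and *Ncam1* by 1.76 (standard error 0.09), while *Nectin3* fell by 1.34 on the log2 scale (standard error 0.07).

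**Figure D2:**
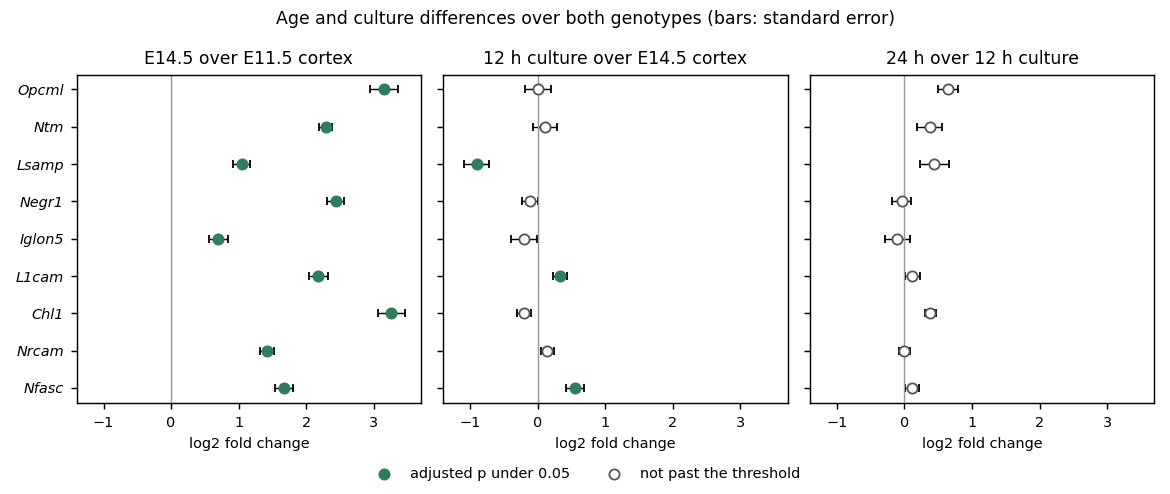
Log2 fold change of each gene (horizontal axis) between ages, from E14.5 cortex to 12-hour culture, and between culture times, over both genotypes, with bars for the standard error and filled points for an adjusted p under 0.05. All 9 points are filled for age, *Lsamp* (-0.91), *L1cam* (0.33) and *Nfasc* (0.55) for culture, and none for culture time.

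The 12-hour cultures were compared with the cortices of the same 6 embryos, which asks what dissociation and culture do to the families. Of the 9 genes 2 were called higher, *L1cam* and *Nfasc*, and 1 lower, *Lsamp*, where 14.1% of the 13601 genes tested were higher and 16.1% lower. *Lsamp* was 368, 294 and 306 in the cortices of controls 3, 4 and 5 and 253, 207 and 134 in their 12-hour cultures. In mutants 1, 2 and 6 it was 375, 313 and 247 in cortex and 198, 154 and 102 at 12 hours. It fell in each of the 6 embryos, by 0.91 on the log2 scale (standard error 0.19, limma adjusted p = 0.00195, exact sign-flip permutation p = 0.0312, the smallest possible with 6 embryos). *Nfasc* rose in each embryo, from 1141, 1086 and 901 to 1597, 1427 and 1079.6 in controls 3, 4 and 5 and from 921, 689 and 575 to 1293, 1245 and 1027 in mutants 1, 2 and 6, a log2 fold change of 0.55 (standard error 0.14, limma adjusted p = 0.00608). *L1cam* also rose in each embryo, with 512 to 595 in cortex and 589 to 797 at 12 hours, a log2 fold change of 0.33 (standard error 0.10, limma adjusted p = 0.0211). The limma fit used here does not pair the libraries of an embryo. With the embryo as a replicate block the limma adjusted p was 0.000687 for *Lsamp*, 0.00215 for *Nfasc* and 0.0256 for *L1cam*, among 3885 genes called. The rise of *L1cam* was not called after quantile normalization (adjusted p = 0.0862) or in a fit of all 24 libraries (adjusted p = 0.0501), and that of *Nfasc* was not called with a term for the share of *Gm42418*, an RNA gene with ribosomal sequence (adjusted p = 0.190). Over all alternatives run the adjusted p lay between 0.00425 and 0.0862 for *L1cam*, 0.000653 and 0.190 for *Nfasc*, and 8.31e-05 and 0.0214 for *Lsamp*.

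The other 6 members were not called between cortex and 12-hour culture. *Chl1* had a log2 fold change of -0.20 (standard error 0.11), with 1447 to 2731 at 12 hours against 1469.7 to 2947 in cortex, and was called lower after quantile normalization (adjusted p = 0.0198) and without the cortex of mutant 6 (adjusted p = 0.0432). *Nrcam* had a log2 fold change of 0.14 (standard error 0.10) and *Iglon5* of -0.21 (standard error 0.19). *Iglon5* varied most at 12 hours, with 615, 372 and 236 in controls 3, 4 and 5 against 338, 356 and 317 in mutants 1, 2 and 6. *Ntm*, *Negr1* and *Opcml* lay within 1 standard error of 0. For *Opcml* the 6 embryos did not share a direction, as described with the genotypes below. Of the L1 partners 4 were higher and 2 lower of 19 tested, with *Ank3* at 0.62 (standard error 0.10) and *Ank2* at 0.54 (standard error 0.11), both ankyrins, and *Nrp1*, a semaphorin receptor that pairs with L1, at -0.89 (standard error 0.14). Of the other adhesion genes 5 were higher and 6 lower of 21. Cell type markers moved with culture: all tested endothelial (5), microglial (5) and meningeal and pericyte (6) markers fell, 8 of 10 apical progenitor markers fell, all 6 erythroid markers rose, and 2 neuron markers rose and 2 fell of 12. The part of these shifts in the members' values was not tested.

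Between 12 and 24 hours in culture 0 of the 9 genes were called by limma, where 0.292% of 13359 genes were, and 2 had an unadjusted p under 0.05, as did 1288 genes. These were *Chl1*, with a log2 fold change of 0.38 (standard error 0.08, limma adjusted p = 0.0506), and *Opcml*, with 0.65 (standard error 0.15, limma adjusted p = 0.0743). *Chl1* went from 2731, 2440.1 and 2208 at 12 hours to 3082, 3455 and 3282 at 24 hours in controls 3, 4 and 5, and from 1727, 1578 and 1447 to 2087, 2075 and 1872 in mutants 1, 2 and 6. *Opcml* went from 348, 304 and 290.0 to 471, 502 and 421 in the controls and from 173, 126 and 92.3 to 230.0, 218 and 186 in the mutants. Both were higher at 24 hours in 6 of 6 embryos, with exact sign-flip permutation p = 0.0312 for each, the smallest possible. With the embryo as a replicate block both were called, at limma adjusted p = 0.0209 for *Chl1* and 0.0178 for *Opcml*, among 104 genes called. DESeq2 on whole reads called both as well (adjusted p = 0.00166 and 0.00551), among 160 genes called. EdgeR's quasi-likelihood test on whole reads called 0, and over all alternatives run the adjusted p lay between 0.00166 and 0.274 for *Chl1* and between 0.00551 and 0.368 for *Opcml*. *Ntm* (0.37, standard error 0.18) and *Lsamp* (0.45, standard error 0.22) had positive changes that were not called, *L1cam* and *Nfasc* had changes of 0.12 (standard error 0.11) and 0.11 (standard error 0.11), and *Negr1*, *Iglon5* and *Nrcam* lay within 1 standard error of 0.

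The genotype values are a description, since the families were chosen on them. They gave a call to 2 members, *Opcml* and *Chl1*, both lower in mutants in the 24-hour cultures. Limma called no member at E11.5, at E14.5 or at 12 hours, and no difference in the genotype effect between settings was called. At E11.5 *Nfasc* was 366, 277 and 427 in controls D, E and F and 178, 219.7 and 231 in mutants A, B and C. *Negr1* was 68.5, 69.4 and 101 in the controls and 50.3, 46.8 and 46.2 in the mutants. *Ntm* was 121, 179.8 and 149 in the controls and 115, 120.5 and 116 in the mutants. In these 3 of the 9 genes each mutant lay below each control, as in 6.11% of the 13406 genes tested, and the log2 fold changes were -0.75 (standard error 0.18) for *Nfasc*, -0.70 (standard error 0.21) for *Negr1* and -0.34 (standard error 0.17) for *Ntm*. The share of genes called at E11.5 was 0.0149%, none of them members. *Chl1* and *Opcml* overlapped between genotypes at this age and lay within 1 standard error of 0, as did *Lsamp*. *L1cam*, *Iglon5* and *Nrcam* had log2 fold changes of -0.38 (standard error 0.24), -0.24 (standard error 0.15) and -0.16 (standard error 0.15), with overlapping groups. Sex was not balanced here, with controls D and F and mutant B male. *L1cam*, on chromosome X, was 147, 153 and 155 in these males and 115, 81.3 and 93.0 in females E, A and C. *Nrcam* was 335, 409.6 and 361 in the males and 303, 286 and 287 in the females. Over all alternatives run, a term for sex among them, the log2 fold change of *L1cam* lay between -0.66 and -0.18. Marker sums of other cells also did not overlap between genotypes at E11.5. The sum of 7 ventral telencephalon and interneuron genes was 936 to 1142 in mutants and 1347 to 1587 in controls, that of 5 choroid plexus genes 1049 to 1152 and 809 to 945, that of 5 endothelial genes 1086 to 1218 and 945 to 1041, and that of 8 liver genes 15.6 to 737 and 6.22 to 14.2. The part of these in the members' values was not tested.

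In E14.5 cortex 4 of the 9 genes had each mutant below each control, as in 6.71% of 13583 genes. They were *Chl1* (log2 fold change -0.54, standard error 0.16), *Opcml* (-0.47, standard error 0.19), *Ntm* (-0.26, standard error 0.13) and *Negr1* (-0.23, standard error 0.13), with the *Chl1* and *Opcml* libraries as given for age above. *Ntm* was 822, 635 and 673 in controls 3, 4 and 5 and 598, 583 and 591 in mutants 1, 2 and 6, and *Negr1* was 373, 376 and 343 against 296, 329 and 306. *Nfasc* had a log2 fold change of -0.54 (standard error 0.18), with 921 in mutant 1 above 901 in control 5. *Iglon5* had 0.27 (standard error 0.19), which became -0.17 (standard error 0.19) with a term for sex, where all 3 controls and 1 of 3 mutants are male. *Lsamp*, *L1cam* and *Nrcam* lay within 1 standard error of 0. No member was called, where 0.0736% of genes were. Over the 12 cortices with age as a term, *Nfasc* had a log2 fold change of -0.64 (standard error 0.13, limma adjusted p = 0.0869) and *Negr1* of -0.47 (standard error 0.12, limma adjusted p = 0.247). *Ntm* had -0.30 (standard error 0.10, limma adjusted p = 0.412), *Opcml* -0.31 (standard error 0.20), *Chl1* -0.29 (standard error 0.20) and *L1cam* -0.22 (standard error 0.14). Again no member was called (0.139% of genes). Without the cortex of mutant 1 *Nfasc* was called among 12 genes, at a limma adjusted p of 0.0359, in a range of 0.0359 to 0.608 over all alternatives run. The microglial marker sum did not overlap between genotypes at E14.5 (735 to 898 in mutants, 384 to 448 in controls), and its part in these values was not tested.

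**Figure D3:**
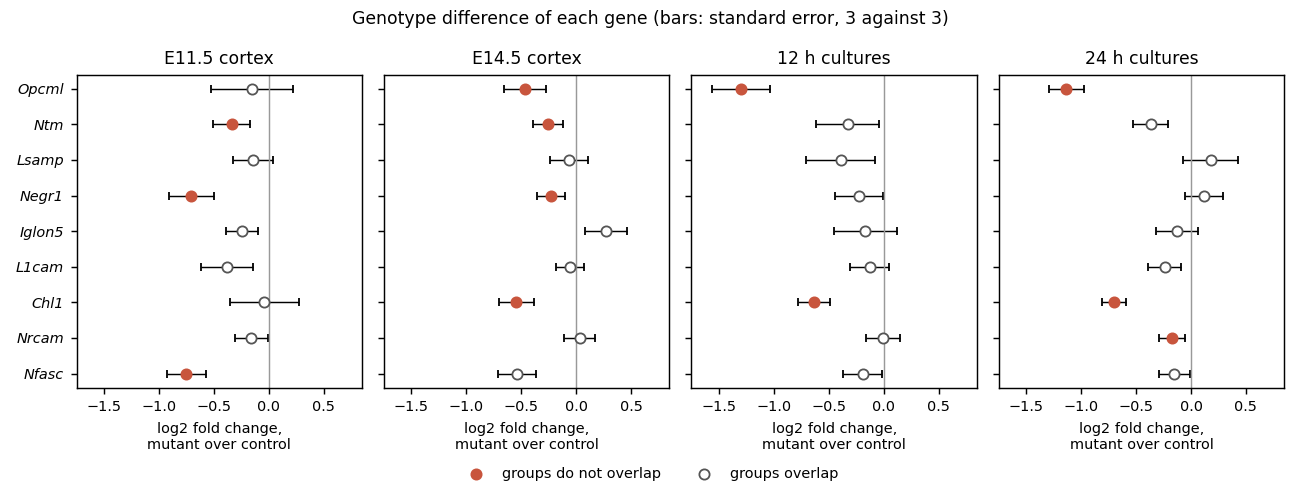
Log2 fold change of mutants over controls (horizontal axis) for each gene in each setting, with bars for the standard error and filled points where all 3 mutants lie on 1 side of all 3 controls. *Opcml* (-1.30 at 12 hours, -1.14 at 24 hours) and *Chl1* (-0.63 and -0.70) lie far to the left in the cultures, and the lowest values of *Nfasc* (-0.75) and *Negr1* (-0.70) are those at E11.5.

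In the cultures *Opcml* and *Chl1* again had each mutant below each control at both times. At 12 hours these were the only 2 of the 9 genes of which that holds, with 5.94% among 13389 genes, and the log2 fold changes were -1.30 (standard error 0.27, limma adjusted p = 0.691) for *Opcml* and -0.63 (standard error 0.14, limma adjusted p = 0.723) for *Chl1*. No gene of the 13389 was called by limma at 12 hours, and 650 had an unadjusted p under 0.05, *Opcml* and *Chl1* among them. EdgeR's quasi-likelihood test also called no member, and DESeq2 called *Opcml* among 9 genes (adjusted p = 0.0250, in a range of 0.0194 to 0.999 over all alternatives run). *Lsamp*, *Ntm*, *Negr1* and *Nfasc* had log2 fold changes of -0.39 (standard error 0.32), -0.33 (standard error 0.29), -0.22 (standard error 0.22) and -0.19 (standard error 0.18) with overlapping groups, and *Iglon5*, *L1cam* and *Nrcam* lay within 1 standard error of 0. With a term for sex the value of *Ntm* became 0.10 (standard error 0.37). At 12 hours the choroid plexus sum was 4773 to 16216 in mutants and 1103 to 3817 in controls, the endothelial sum 70.5 to 102 and 24.3 to 50.3, the sum of 6 intermediate progenitor genes 2485 to 2630 and 2190 to 2282, and the sum of 6 microglial genes 6.31 to 15.6 and 18.8 to 40.9. None of these overlapped between genotypes, and their part in the members' values was not tested.

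At 24 hours *Opcml* averaged 465 ± 40.8 (SD, n = 3) in controls and 211 ± 22.7 in mutants, and *Chl1* 3273 ± 187 and 2011 ± 121. These are folds of 2.20 and 1.63, with log2 fold changes of -1.14 (standard error 0.16, limma adjusted p = 0.0109) and -0.70 (standard error 0.11, limma adjusted p = 0.0166). They were the 2 members called, both lower, where 0.15% of 13300 genes were called lower. The families were chosen on genotype differences of these libraries, so the 2 calls beside this share are a description. *Nrcam* was the third member whose groups did not overlap, at 1057, 996 and 1028 in controls 3, 4 and 5 and 992, 881 and 862 in mutants 1, 2 and 6 (log2 fold change -0.17, standard error 0.12), as in 9.06% of genes. *Ntm*, *L1cam* and *Nfasc* had log2 fold changes of -0.37 (standard error 0.16), -0.24 (standard error 0.15) and -0.15 (standard error 0.14), and *Lsamp*, *Negr1* and *Iglon5* lay within 1 standard error of 0. Leaving out control 3 removed both calls (adjusted p = 0.0528 for *Opcml* and 0.0562 for *Chl1*), and *Chl1* was also not called without control 5, mutant 2 or mutant 6 (adjusted p = 0.116, 0.0556 and 0.0677). Both calls were also lost in a fit of all 24 libraries, with a term for sex and with a term for the *Gm42418* share, which was 20.5% to 23.0% in mutants and 6.26% to 13.9% in controls. Over all alternatives run the adjusted p lay between 7.5e-07 and 0.939 for *Opcml* and between 8.88e-06 and 0.939 for *Chl1*, and the log2 fold change between -1.42 and -1.05 for *Opcml* and between -0.80 and -0.62 for *Chl1*.

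**Figure D4:**
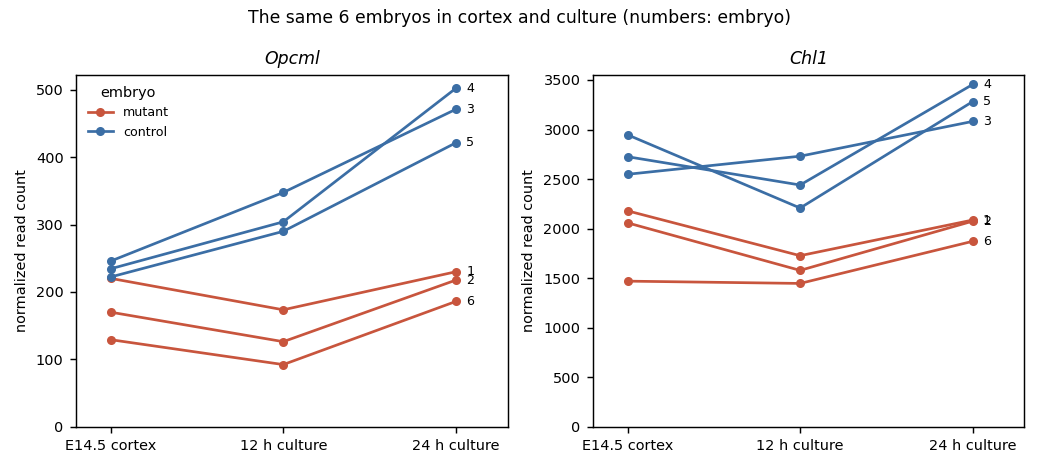
Normalized read count of *Opcml* and *Chl1* (vertical axis, from 0) in the cortex and in the 12-hour and 24-hour cultures of each E14.5 embryo, with a line for each embryo and its number at the right. *Opcml* goes up from cortex to 12 hours in controls 3, 4 and 5 and down in mutants 1, 2 and 6, and both genes go up from 12 to 24 hours in all 6 embryos.

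From cortex to 12 hours *Opcml* rose in each control embryo, by 0.37 to 0.50 on the log2 scale, and went from 220.2, 170.0 and 129 to 173, 126 and 92.3 in mutants 1, 2 and 6. The difference between the genotype effects at 12 hours and in cortex was -0.83 (standard error 0.34, unadjusted p = 0.0249 and adjusted p = 0.793 from limma), so it was not called. With 24-hour cultures in place of 12-hour cultures it was -0.67 (standard error 0.25, adjusted p = 0.786). These fits do not pair the libraries of an embryo. With the embryo as a replicate block the standard errors were 0.27 (limma adjusted p = 0.780) and 0.22 (limma adjusted p = 0.530). No member was called in any of the 3 tests of a difference in the genotype effect, between ages, between 12-hour culture and cortex, or between culture times. Without the block limma called 0 genes in each of them, with 1070, 724 and 318 genes at an unadjusted p under 0.05. With it 3 genes were called between 12-hour culture and cortex, and 0 members. Between 12-hour culture and cortex *Iglon5* had a difference of -0.44 (standard error 0.38) and *Nfasc* of 0.35 (standard error 0.26). Between culture times *Lsamp* had 0.57 (standard error 0.44) and *Negr1* 0.34 (standard error 0.27). Between E14.5 and E11.5 cortex *Negr1* had a difference of 0.47 (standard error 0.22, unadjusted p = 0.0511 and adjusted p = 0.620 from limma). There *Iglon5* had 0.51 (standard error 0.25, unadjusted p = 0.0608 from limma), *L1cam* 0.32 (standard error 0.28, unadjusted p = 0.267 from limma) and *Chl1* -0.50 (standard error 0.39, unadjusted p = 0.217 from limma). The differences of *Nfasc* (unadjusted p = 0.436 from limma) and *Opcml* (unadjusted p = 0.452 from limma) between the ages lay within 1 standard error of 0.

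The summed neuron markers were lower in mutants in E14.5 cortices and in cultures, but single markers did not all follow the sum. In mutant E14.5 cortices 8 of the 12 markers had a lower mean log2 value and 4 a higher one. The 12-hour cultures had 10 lower and 2 higher, and the 24-hour cultures 12 lower and 0 higher. Limma called none of these markers by genotype. Counted per 1000 of this sum, the difference in *Opcml* persisted in culture. It was 6.22 to 8.10 in controls and 2.3 to 4.32 in mutants at 12 hours and 9.01 to 11.2 and 4.90 to 6.03 at 24 hours, while at E14.5 the cortices overlapped (5.07 to 5.50 and 3.68 to 5.63). *Chl1* did not overlap on this scale in E14.5 cortex (57.0 to 69.2 in controls and 41.8 to 55.7 in mutants), at 12 hours (47.4 to 63.7 and 36.1 to 44.8) or at 24 hours (65.5 to 76.7 and 49.3 to 57.5). At E11.5 *Nfasc* was 22.6 to 24.3 in controls and 14.8 to 18.9 in mutants, and *Negr1* 4.40 to 5.74 and 3.40 to 4.20. The E14.5 cortices overlapped for *Ntm* (13.7 to 18.4 and 15.3 to 16.8) and *Negr1* (8.05 to 8.35 and 7.56 to 8.72), and *Nrcam* at 24 hours lay slightly higher in mutants (22.7 to 24.4) than in controls (22.0 to 22.4). The share of all genes whose groups do not overlap on this scale was not counted, so these ranges are a description. The 24-hour groups also did not overlap in marker sums of other cells. The liver sum was 108 to 343 in mutants and 1.69 to 6.83 in controls, the choroid plexus sum 5042 to 16897 and 879 to 3629.9, the sum of 10 apical progenitor genes 13645 to 15155 and 10797 to 12268, and the sum of 6 meningeal and pericyte genes 234 to 292 and 149 to 182. The part of these in the members' values was not tested.

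**Figure D5:**
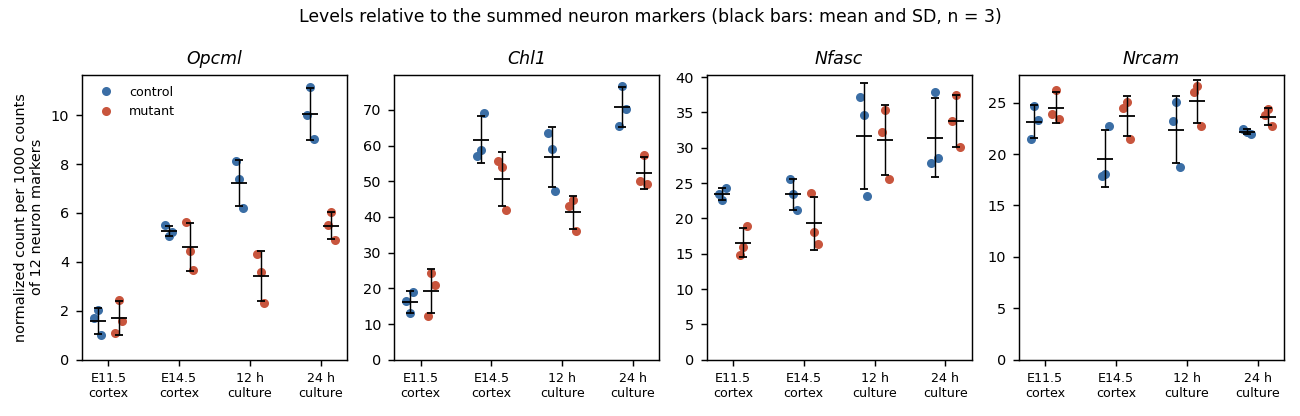
Normalized count of *Opcml*, *Chl1*, *Nfasc* and *Nrcam* per 1000 summed counts of 12 neuron markers (vertical axis, from 0) by setting and genotype, with points for libraries and black bars for the mean and SD of 3. The *Opcml* and *Chl1* mutants stay below the controls in both cultures, the *Nfasc* mutants do so at E11.5, and *Nrcam* varies between 17.8 and 26.6 in all settings.

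No partner of the L1 family and no gene of the other adhesion families was called by genotype in any of the 4 settings or over the 12 cortices, with 18 to 19 and 18 to 23 of them tested. The median log2 fold change at 24 hours was -0.10 over the partners and -0.32 over the other adhesion genes, beside -0.17 over the members and -0.01 over all genes. At 12 hours it was -0.09, -0.31, -0.22 and -0.02 in the same order. The summed count of the other adhesion genes did not overlap between genotypes in culture. It was 15975 to 17876 in mutants and 20201 to 23112 in controls at 12 hours, and 17695 to 19100 and 22549 to 24608 at 24 hours. The partner sum was 27647 to 28400 in mutants and 28468 to 30651 in controls at 12 hours and overlapped at 24 hours. Both sums overlapped in E11.5 and in E14.5 cortex.

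The order of the 8 groups by mean level differed among the members. *Opcml* ran from E11.5 mutants and controls, which overlapped, through 12-hour mutants, E14.5 mutants, 24-hour mutants and E14.5 controls, each overlapping the next, to 12-hour controls and then 24-hour controls, each apart from the group before. *Chl1* was also lowest at E11.5 and highest in 24-hour controls, and its 12-hour, E14.5 and 24-hour mutants overlapped in that order and lay below the 12-hour controls. *Lsamp* was highest in E14.5 controls (323 ± 39.8, SD, n = 3) and mutants (312 ± 64.1), and no neighbours in its order were apart. *L1cam*, *Nrcam*, *Nfasc* and *Ntm* had their lowest mean in E11.5 mutants and their highest in 24-hour controls. In each of them the 24-hour controls overlapped the group before, and for *L1cam* and *Nrcam* the E11.5 mutants and controls overlapped.

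Across the 24 libraries the genes of the table whose log2 values followed each member most closely, by Pearson's r over 13678 genes, were *Mef2c* for *Opcml* (r = 0.98), *Dcx* for *Ntm* (0.98), *Cnr1* for *Negr1* (0.98), *Chd5* for *L1cam* (0.99), *Rab3c* for *Chl1* (0.99), *Nedd4l* for *Nrcam* (0.99) and *Brinp2* for *Nfasc* (0.98). *Lsamp* and *Iglon5* had no such close match, with *Cldn34c1* (0.88) and *R3hdm4* (0.88). *Opcml* and *Chl1* had r = 0.97 with each other, and 0.53 once the 8 group means were removed. The 24 points share embryos and the split by age, so these values describe the libraries.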

How the data were processed

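RNA from 24 libraries of 12 embryos was primed with oligo(dT). The authors trimmed the reads, mapped them to GRCm38 with TopHat2 (2.0.10) and counted them by strand with HTSeq (0.6.1) on GENCODE vM20. The deposited table holds signal, the read count of each gene divided by a size factor of its library, unpooled. Of 484666 values above 0, 484666 equalled whole reads (within 0.001). In control D of E11.5 a read equals 1.01 units, too near 1 to tell from rounding, so whole reads served only comparisons without E11.5 libraries. Depth was 4732781 to 11645213 reads.

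Members and lists were chosen with earlier results of these data known. Positions came from GENCODE vM21. The genes named are the 9 members, in each list up to 4 called genes with the smallest p, markers beside a result, and the genes most correlated with a member (the first of 3). Limma (3.58.1, R 4.3.3) with an intensity trend was fitted to log2(normalized count + 1) of the libraries compared, over all genes averaging at least 10, with Benjamini-Hochberg adjustment. A log2 fold change is printed where it is at least 1 standard error. Exact permutation tests were two-sided, with a smallest p of 0.1 for 3 embryos against 3. The labels pair cortex and cultures of an embryo, and deviations of 18 such pairs from group means correlated at -0.11 to 0.24 (median 0.14, 12 above 0.1). Steps were tested on simulated counts. Alternatives were pseudocounts of 0.1 and 5, dropping the filter or raising it to 50, quantile normalization, median-of-ratios rescaling, an adjusted p under 0.1, edgeR (4.0.16) and DESeq2 (1.42.0) on whole reads, a joint fit of 24 libraries, a term for sex, litter or embryo as a block and leaving out each library. A term for the *Gm42418* share and 24-hour in place of 12-hour cultures were chosen after seeing the data.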

Additional observations from a re-analysis of the deposited data

Results flagged for a closer look

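From E14.5 cortex to 12-hour culture *Opcml* changed in opposite directions in the 2 genotypes, with a mean log2 change of 0.418 in control embryos 3, 4 and 5 (each up) and of -0.416 in mutant embryos 1, 2 and 6 (each down). It was found by looking at each member and each change for opposite directions. The share of all genes with such a pattern was not counted. Since the members were chosen on genotype differences, this is a description. The test of the difference itself gave an adjusted p of 0.793 from limma (unadjusted p = 0.0249), and 0 of 13601 genes were called in it. With the embryo as a replicate block the limma adjusted p was 0.780, and 3 genes were called. From 12 to 24 hours both genotypes went up, by a mean of 0.57 in controls and 0.73 in mutants on the log2 scale. Groups of 3 libraries were not examined for single outlying libraries.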

How the results depend on the processing

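The 9 rises with age were called under each alternative run and without each library in turn. In 12-hour cultures 1 member, *Opcml*, was called lower by genotype with no filter, with DESeq2, in a fit of all 24 libraries and with a term for sex (0 in the main fit). These settings called 9, 9, 77 and 182 genes in all, and the main fit called 0. In 24-hour cultures the 2 calls became 0 in a fit of all 24 libraries, with a term for sex and with a term for the *Gm42418* share. These settings called 45, 4 and 0 genes in all. The count of members called lay between 0 and 2 with a library left out. Over the 12 cortices 1 member, *Nfasc*, was called at an adjusted p under 0.1 and with the *Gm42418* term, where 28 and 21 genes were. The count of members called lay between 0 and 1 with a library left out. Between 12 and 24 hours 1 member, *Chl1*, was called with a pseudocount of 5, a mean of at least 50 or median-of-ratios rescaling. These settings called 56, 51 and 48 genes in all. At an adjusted p under 0.1, with DESeq2, with a term for sex and with the replicate block 2 members were called. These called 88, 160, 66 and 104 genes in all, beside 39 in the main fit. With a library left out 0 to 2 members were called (2 without the 12-hour culture of mutant 1, among 44 genes). With a term for sex the genotype difference of *Iglon5* at E14.5 became -0.17 and that of *Ntm* at 12 hours 0.10. The replicate block left the 3 calls between cortex and 12-hour culture at 3, and beyond the 2 calls between 12 and 24 hours given above it changed no count of members called. The cause of these changes was not tested. Litter as a block could not be run for age, since each litter holds a single age, and whole-read tests were not run where E11.5 libraries enter. Each genotype comparison rests on 3 embryos against 3, the 24-hour depths of the genotypes do not overlap, and at E14.5 all controls and 1 of 3 mutants are male. At E11.5 controls D and F and mutant B are male.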
